A study of Mus musculus with 30 samples.

Results

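The apolipoprotein and lipid efflux genes described here are Apoe, Lpl, Abca1, Abcg1, Nr1h2, Nr1h3, Ch25h, Npc1, Npc2 and Lipa. They were chosen by symbol, with earlier results of these data known. Each of the 10 had a single row among the 24888 rows of the mouse expression table. RNA had been taken from microglia, the tissue macrophages of brain and spinal cord, here of lumbar spinal cord (C57BL/6J mice). Magnetic selection used CD11b, an integrin that monocytes and neutrophils also carry, and gave 30 libraries in 12 groups. Values are FPKM, fragments scaled by transcript length and library size, so levels of different genes can be compared per length.

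The 9 controls comprised 2 naive libraries, for which the labels name no treatment or injury, 4 libraries from mice given saline on a fixed regimen and 3 from mice given saline on an escalating regimen. Nerve injury gave 14 libraries in pairs, named here by model and by days post injury (dpi). Sciatic nerve transection (SNT) was sampled on days 1, 2, 4 and 7. For chronic constriction injury (CCI) the days were 2 and 7. Spared nerve injury (SNI) had day 7 alone. Morphine followed the fixed regimen (4 libraries) or the escalating regimen (3 libraries), with saline of the same regimen as its control. The labels give no dose, age or sex and no surgical sham, and do not tie each library to an animal of its own. Every p-value therefore measures the spread between these libraries, which may be technical.

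Microglia take up myelin, dead cells and lipoproteins and cannot break the sterol ring, so cholesterol has to leave the cell. Lipa and the Npc proteins free cholesterol from the lysosome, Ch25h makes an oxysterol from it, and oxysterols bind the liver X receptors (LXR) encoded by Nr1h2 and Nr1h3. The receptors switch on Abca1, Abcg1 and Apoe, which pass cholesterol to lipoproteins outside the cell, and Lpl releases fatty acids from lipoproteins.

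The promoter of Abca1 carries the letters that LXR paired with RXR is known to bind, a direct repeat of a nuclear receptor site with 4 bases between (DR4). Its 250 bases before the start are therefore shown, beside those of Apoe, the most abundant of the 10 genes. Both are on the minus strand of GRCm38.p6 and come from RefSeq; capitals mark the match to the DR4-like motif.
Abca1, chr4:53159896-53160145: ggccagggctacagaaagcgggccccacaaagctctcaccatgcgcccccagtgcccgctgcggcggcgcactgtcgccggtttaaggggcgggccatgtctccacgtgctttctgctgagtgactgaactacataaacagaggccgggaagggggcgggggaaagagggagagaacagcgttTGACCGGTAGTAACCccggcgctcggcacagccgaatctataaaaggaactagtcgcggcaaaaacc
Apoe, chr7:19699189-19699438: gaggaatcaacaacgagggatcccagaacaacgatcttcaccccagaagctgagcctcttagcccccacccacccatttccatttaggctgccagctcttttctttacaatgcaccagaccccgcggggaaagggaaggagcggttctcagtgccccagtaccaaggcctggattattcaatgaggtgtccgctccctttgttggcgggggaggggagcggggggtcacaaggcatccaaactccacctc

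The motif searched was GGTNA, then 5 bases of any kind, then GGTCA, on both strands. The Abca1 match reads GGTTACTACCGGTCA on the other strand, and its first base lies at -67 from the start. Among all RefSeq windows of the same 250 bases, 58 of 32851 (0.177%) held a match. RefSeq windows were found for 7 of the 10 genes (10 windows, 3 of them of Apoe and 2 of Nr1h3), and the Abca1 window was the 1 with a match. The E-box CACGTG, the core of the motif that lysosomal regulators of the TFEB family bind, was in 6.02% of all windows and in the Abca1 window alone among the 10 of these genes, at -147. A match describes letters and is not a measured binding site.

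In the GENCODE annotation of GRCm38, Apoe lies on chromosome 7 from 19696109 to 19699188 (minus strand), and Abca1 on chromosome 4 from 53030787 to 53159895 (minus strand). Abcg1 lies on chromosome 17 from 31057675 to 31117988 and Lpl on chromosome 8 from 68880491 to 68907448, both on the plus strand. Nr1h3 is on chromosome 2 from 91184061 to 91202834, Nr1h2 on chromosome 7 from 44549616 to 44553951 and Npc2 on chromosome 12 from 84754562 to 84773152, all on the minus strand. Ch25h (34473778 to 34475164) and Lipa (34492318 to 34527474) are neighbours on the minus strand of chromosome 19, with 17153 bases between them.

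The files hold no counts, so depth is unknown. Genes with at least 1 FPKM numbered 8005 to 10427 per library, and 3 SNT libraries stood lowest: replicate 1 at 1 dpi (8005), replicate 1 at 7 dpi (8466) and replicate 2 at 2 dpi (8763). Libraries also fell into sets by Cst3, an abundant microglial gene: 14 libraries had 10120 to 20827 FPKM and 16 had 39503 to 95123 FPKM, with none between. These sets were drawn from the data, they are not the study's groups, and the labels name no batch. All naive, CCI, SNI and fixed morphine libraries were in the low Cst3 set and all fixed and escalating saline libraries in the high set; of SNT and escalating morphine, 1 library each (SNT at 7 dpi replicate 2, escalating morphine replicate 1) was in the low set. The microglial markers P2ry12 and Tmem119 were at 562 to 1550 FPKM and 262 to 1443 FPKM over the libraries, with none at 0. The 8 neutrophil markers summed to 1641 to 60462 FPKM and the 7 monocyte markers to 5.03 to 2431 FPKM, so the selected cells were not microglia alone.

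Apoe was by far the most abundant of the genes, with a mean of 1578 FPKM over the 30 libraries, rank 21 among the 11759 genes that passed a filter on low values (1 FPKM in at least 2 libraries). Npc2 followed with 160 FPKM, then Lipa with 31.7, Nr1h2 with 24.7, Npc1 with 18.0, Abcg1 with 13.3, Abca1 with 9.99 and Lpl with 9.04 FPKM. Ch25h had 1.01 FPKM and Nr1h3 0.374 FPKM. Of the pair of LXR genes, these libraries thus held Nr1h2, the beta form, and little Nr1h3, the alpha form. Apoe exceeded Npc2, and Npc2 exceeded Lipa, in 30 of 30 libraries. Lower in the order the neighbours crossed: Lipa exceeded Nr1h2 in 25 of 30 libraries, Nr1h2 exceeded Npc1 in 26, Npc1 exceeded Abcg1 in 23 and Abcg1 exceeded Abca1 in 27, but Abca1 exceeded Lpl in only 14. Lpl exceeded Ch25h in 30 libraries and Ch25h exceeded Nr1h3 in 23.

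Nr1h3 did not pass the filter, since no library reached 1 FPKM (highest 0.909 FPKM, naive replicate 2), so 9 of the 10 genes were tested. It was listed at 0 in 6 libraries, all in the high Cst3 set, and stood at 0.103 to 0.909 FPKM in the low set. With no filter on low values it was called in none of the 17 comparisons (limma adjusted p from 0.288 to 1).

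**Figure D1:**
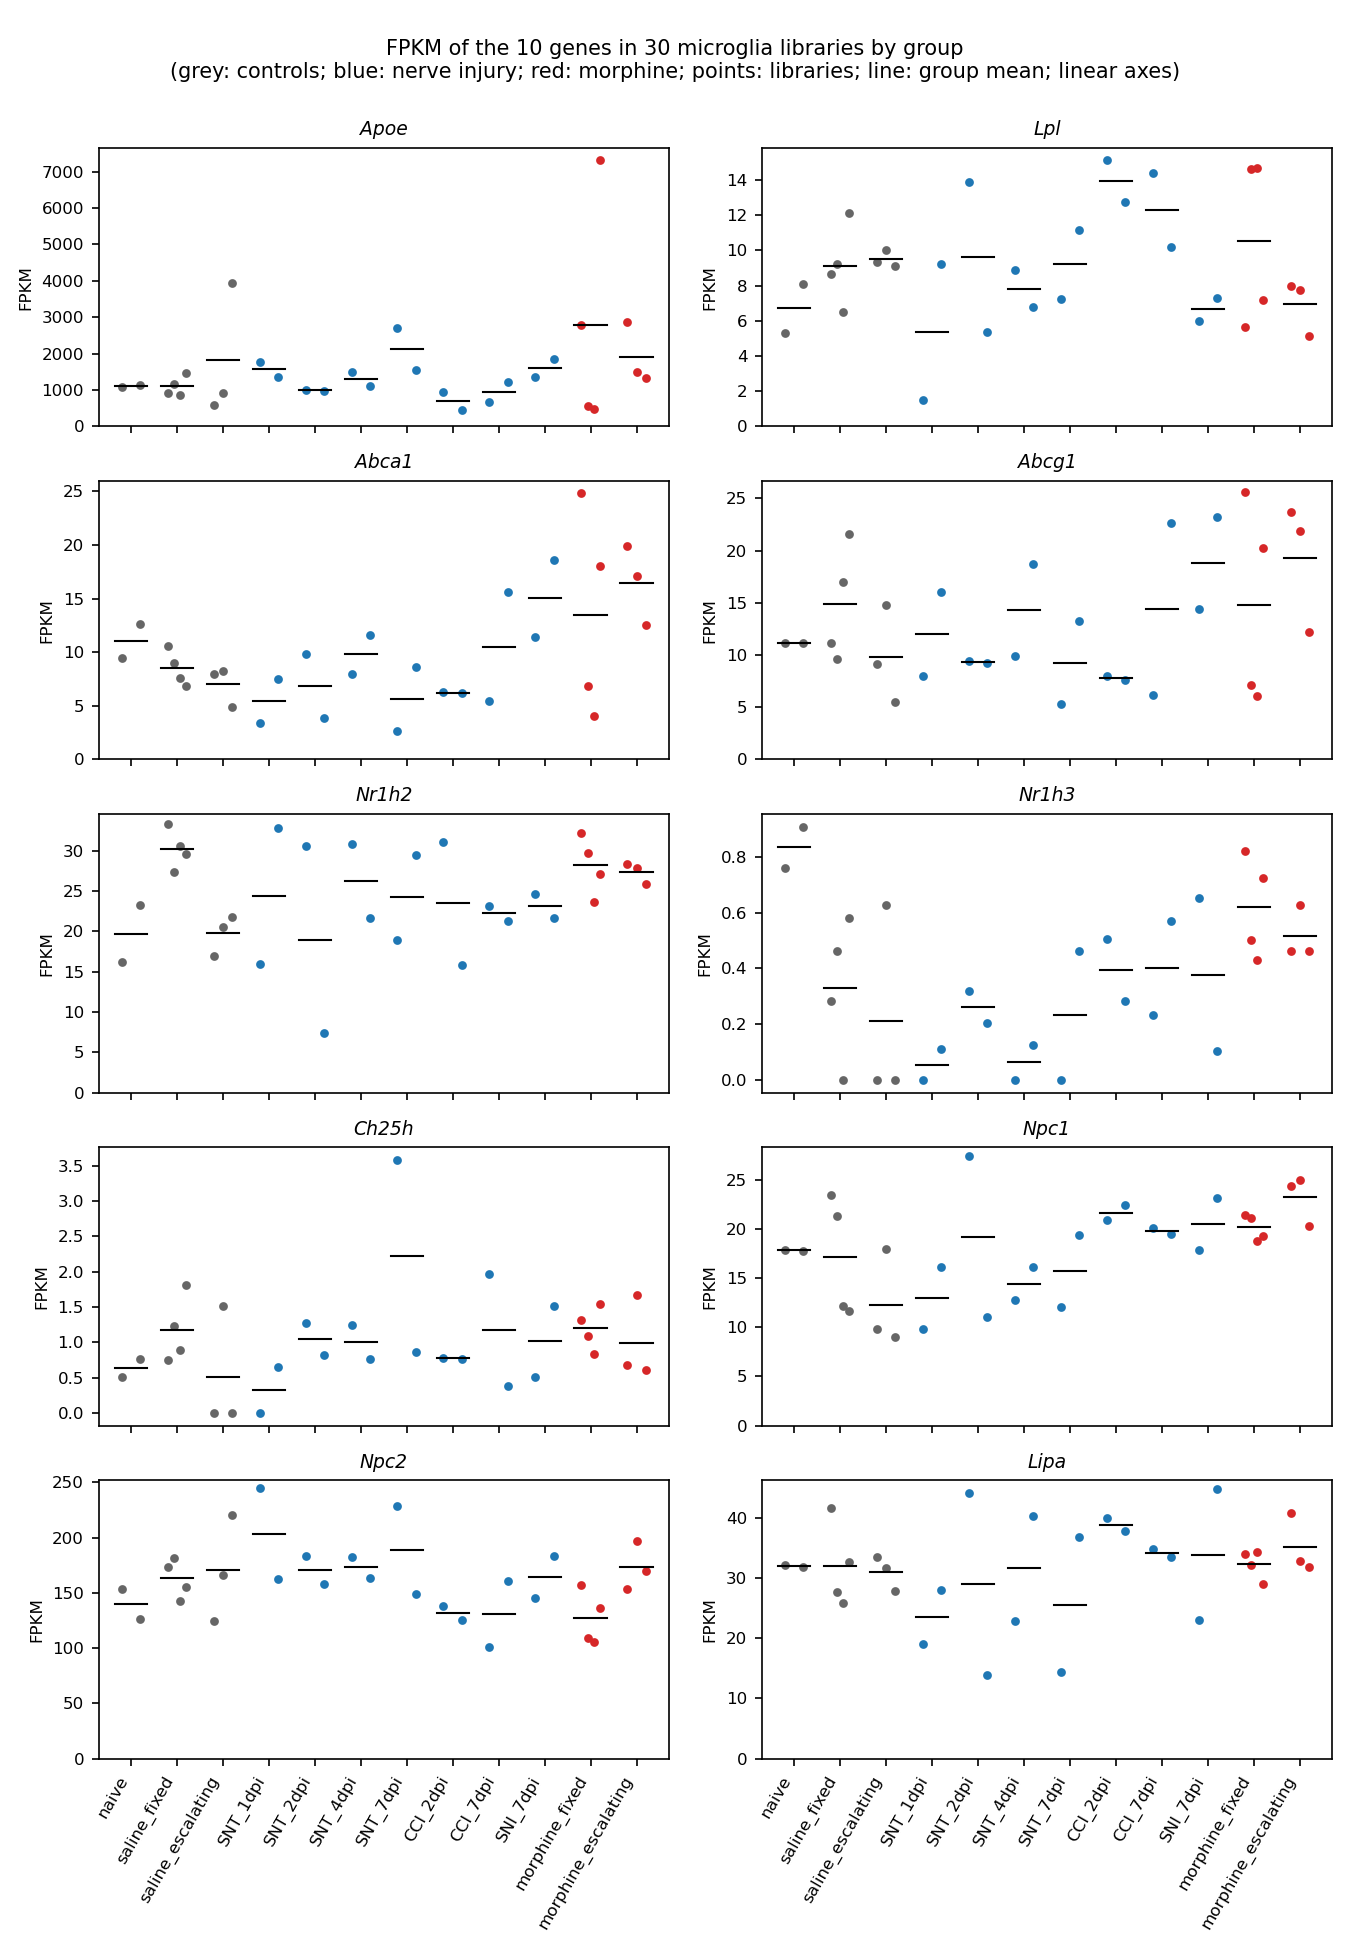
FPKM (vertical, linear) of each of the 10 genes in the 12 groups (horizontal); each point is 1 library and the black line is the group mean. Apoe shows 1 fixed morphine library at 7313 FPKM and 1 escalating saline library at 3932 FPKM above their groups, and in fixed morphine the Abca1, Abcg1 and Lpl points fall into pairs.

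None of the 9 tested genes passed the threshold (limma, Benjamini-Hochberg adjusted p under 0.05 over all 11759 genes) in any of the 17 comparisons. In most of them few genes of any kind did. The share called over all genes was 0.017% for SNT at 1 dpi, 0% at 2 and at 4 dpi and 0.204% at 7 dpi. It was 0.0085% for CCI at 2 dpi and 0% for CCI and for SNI at 7 dpi. It was 0.034% for escalating morphine, 0.0085% for the difference between the regimens and 0% for each matched-day contrast of injuries. Among SNT days, among the 3 kinds of control and among all 12 groups it was 0.0085%, 0.102% and 7.72%. For fixed morphine it was 18%, and 9 genes are too few to tell 0 of 9 from that share. At an unadjusted limma p under 0.05, 1 of 9 genes passed for SNT at 1 dpi (16.1% of all genes), and 3 of 9 for escalating morphine (19.2%). It was 1 of 9 for SNI against SNT at 7 dpi (Abca1; 4.51%) and 1 of 9 for the difference between the regimens (Nr1h2; 11.7%). In the other 13 comparisons, fixed morphine (34.7%) among them, it was 0 of 9.

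**Figure D2:**
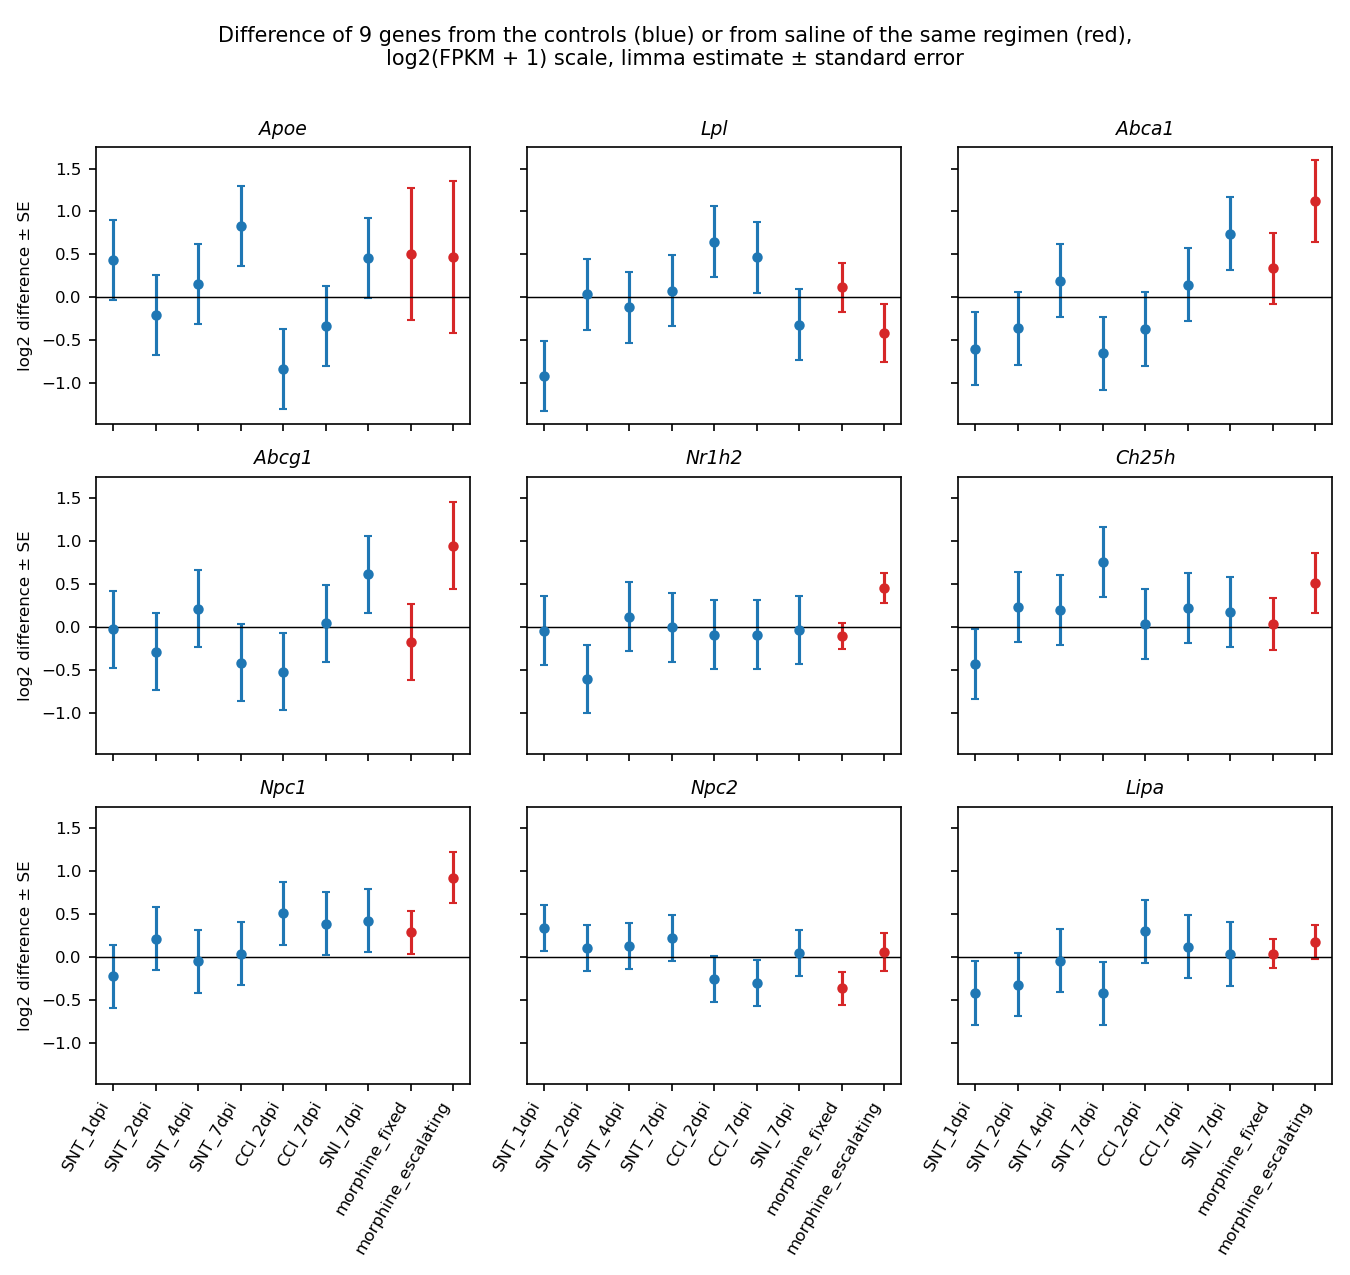
Difference of the 9 tested genes (panels) on the log2(FPKM + 1) scale, as the limma estimate with its standard error, for the 7 injury groups against the 9 controls (blue) and for each morphine regimen against its saline (red). Npc1, Abca1 and Nr1h2 under escalating morphine lie at 0.92, 1.13 and 0.46, and Apoe has the widest bars.

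Apoe, the main lipid carrier that glia secrete, had 1092 and 1131 FPKM in the naive libraries. The 4 fixed saline libraries held 919, 1154, 867 and 1457 FPKM, and the 3 escalating saline libraries 591, 928 and 3932 FPKM. The controls thus lay close together except for escalating saline replicate 9, which was above every injury library. After SNT, Apoe was at 1776 and 1356 FPKM on day 1, 1011 and 978 at 2 dpi, 1484 and 1103 at 4 dpi, and 2714 and 1540 at 7 dpi. After CCI it was at 948 and 441 FPKM on day 2 and at 682 and 1213 on day 7, and after SNI at 1345 and 1854. All of these groups overlapped the controls. Over the 7 injury groups, 1 of the 9 tested genes lay in 1 group wholly outside the controls (Lpl after CCI at 2 dpi). Among all genes the share wholly outside was 6.23%, 2.3%, 3.55% and 4.58% for SNT at 1, 2, 4 and 7 dpi. It was 10.3% and 9.33% for CCI at 2 and 7 dpi and 3.09% for SNI.

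The difference of Apoe from the controls was 0.83 ± 0.47 (SE, log2 scale) for SNT at 7 dpi (limma adjusted p = 0.622) and -0.83 ± 0.47 for CCI at 2 dpi (limma adjusted p = 0.514). Neither exceeded the spread between replicates by this test. Between injuries on the same day, Apoe was lower in both CCI libraries than in both SNT libraries at 2 dpi and at 7 dpi, and lower after CCI than after SNI at 7 dpi. Such separation of 2 libraries from 2 was common: 45.6% of all genes showed it at 2 dpi, 24.1% for CCI against SNT at 7 dpi and 30.9% for CCI against SNI. The largest of these differences was -1.17 ± 0.60 for CCI against SNT at 7 dpi (limma adjusted p = 0.702). CCI and SNI libraries were all in the low Cst3 set and all but 1 of the SNT libraries in the high set, so injury and set cannot be told apart in most of these contrasts.

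Under fixed morphine Apoe was at 2784, 556, 474 and 7313 FPKM in replicates 1 to 4. These 4 libraries spanned the whole range of the fixed saline libraries and exceeded it on both sides, and replicate 4 had the highest Apoe of all 30. None of the 9 tested genes separated fixed morphine from fixed saline without overlap, whereas 29.6% of all genes did. Under escalating morphine Apoe was at 2866, 1505 and 1319 FPKM, within the range of escalating saline. The differences were 0.50 ± 0.77 and 0.47 ± 0.89 (limma adjusted p = 0.676 and 0.822). The SD of Apoe within groups was 0.99 on the log2 scale, against a median of 0.49 over all tested genes, and 96.6% of them had a lower SD. Fewer Apoe-rich cells and less Apoe RNA per cell cannot be told apart in such bulk samples, here or for the other genes.

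Macrophages and monocytes carry Apoe too, and their markers were read beside it. Fixed morphine replicate 4 had the highest mean level of the monocyte list of all 30 libraries (5.19 on the log2 scale, against 2.88 to 3.44 in the other 3 fixed morphine libraries), and escalating saline replicate 9 had 4.94. That library also had the highest means of the 30 for border macrophage (2.24), oligodendrocyte (3.73) and neuron markers (2.66). Fixed morphine replicate 1, with the other high Apoe value, had 2.88 for the monocyte list and 0.86 for border macrophage markers, at the low end. Monocyte means were also high in fixed saline replicates 6 (4.83) and 3 (4.68), where Apoe was at 1457 and 919 FPKM. Escalating morphine replicate 1 had 4.70, with Apoe at 2866 FPKM. Over the 30 libraries the mean log2 level of none of 8 cell type lists was related to Apoe past an adjusted p of 0.05. The highest was the neutrophil list, with Pearson's r 0.34 (permutation p = 0.0655, adjusted over 8 lists 0.392), Spearman's rho 0.17 (permutation p = 0.368, adjusted 0.736) and r 0.47 without the 2 farthest libraries. The monocyte list had r 0.26 (permutation p adjusted over 8 lists 0.392) and rho 0.04 (adjusted permutation p = 0.968). Within the low and high Cst3 sets r was 0.63 and 0.15 for neutrophils, 0.59 and 0.01 for monocytes, and 0.61 and -0.18 for endothelial and mural cells. It was -0.03 and 0.68 for oligodendrocytes and 0.04 and 0.50 for neurons. For border macrophages it was 0.19 and 0.19, for astrocytes -0.06 and 0.11, and for microglia 0.19 and -0.285. These within-set values were not tested. The part of other cells in the Apoe values was not tested further.

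Lpl, the lipase that microglia of development and of demyelinating disease are known to express, was at 5.31 and 8.11 FPKM in the naive libraries. Fixed saline held 8.64, 9.24, 6.53 and 12.1 FPKM, and escalating saline 9.32, 10.02 and 9.12 FPKM. After SNT it was at 1.48 and 9.22 FPKM on day 1, 13.9 and 5.39 at 2 dpi, 8.89 and 6.77 at 4 dpi, and 7.25 and 11.2 at 7 dpi. At 1 and at 2 dpi the 2 SNT libraries differed by more than the range of the controls, and the lowest Lpl value of all was in the library with the fewest genes. After CCI it was at 15.2 and 12.7 FPKM on day 2 and at 14.4 and 10.2 on day 7, and after SNI at 6.02 and 7.27 FPKM.

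Both CCI libraries at 2 dpi lay above all 9 controls in Lpl, and of the 9 tested efflux genes only Lpl did so in any injury group. Of all genes, 10.3% lay wholly outside the controls in that group. The Lpl difference was 0.64 ± 0.41 (limma adjusted p = 0.572). At 7 dpi Lpl was also higher in both CCI than in both SNI libraries, by 0.79 ± 0.53 (limma adjusted p = 1). For SNT at 1 dpi the difference was -0.92 ± 0.41 (limma adjusted p = 0.283), and it rested on replicate 1. Without SNT at 1 dpi replicate 2, which leaves that library alone, it was -1.94 and was called (limma adjusted p = 0.00839).

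Lpl was at 5.67, 14.6, 14.7 and 7.16 FPKM in fixed morphine replicates 1 to 4, and at 8.00, 7.74 and 5.13 FPKM under escalating morphine. The fixed morphine libraries lay on both sides of fixed saline. All 3 escalating morphine libraries lay below all 3 escalating saline libraries, as 18.3% of all genes did not overlap in this comparison. The differences were 0.11 ± 0.29 and -0.42 ± 0.33 (limma adjusted p = 0.810 and 0.526).

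Abca1, which loads cholesterol onto lipid-poor apolipoproteins, was at 9.49 and 12.6 FPKM in the naive libraries. It was at 10.6, 9.00, 7.55 and 6.82 FPKM in fixed saline and at 8.01, 8.27 and 4.88 FPKM in escalating saline. After SNT it was at 3.44 and 7.54 FPKM on day 1, 9.80 and 3.89 at 2 dpi, 8.00 and 11.6 at 4 dpi, and 2.67 and 8.62 at 7 dpi. The 3 SNT libraries with the fewest genes thus held the 3 lowest Abca1 values of the 30. After CCI it was at 6.25 and 6.20 FPKM on day 2 and at 5.41 and 15.6 on day 7, and after SNI at 11.4 and 18.6 FPKM.

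All injury groups overlapped the controls in Abca1. The highest injury value was that of SNI, with a difference of 0.74 ± 0.43 from the controls (limma adjusted p = 0.999). At 7 dpi both SNI libraries lay above both SNT libraries in Abca1 and in Abcg1, where 25.4% of all genes did not overlap. Abca1 differed by 1.39 ± 0.55 (limma adjusted p = 0.861) and Abcg1 by 1.03 ± 0.58 (limma adjusted p = 0.861). Without SNT at 7 dpi replicate 2, which leaves the library with few genes alone, the Abca1 difference was 2.09 and was called (limma adjusted p = 0.0400).

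Under escalating morphine Abca1 was at 19.9, 17.1 and 12.5 FPKM, above all 3 escalating saline libraries. The difference of 1.13 ± 0.48 did not pass after adjustment (limma adjusted p = 0.226). Under fixed morphine it was at 24.9, 6.83, 4.09 and 18.0 FPKM, again with replicates 1 and 4 high and replicates 2 and 3 low, on both sides of fixed saline (0.33 ± 0.41, limma adjusted p = 0.598).

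Abcg1, which passes cholesterol to formed lipoprotein particles, was at 11.2 FPKM in both naive libraries, at 11.2, 9.65, 17.0 and 21.6 FPKM in fixed saline and at 9.11, 14.8 and 5.53 FPKM in escalating saline. After SNT it was at 8.02 and 15.99 FPKM on day 1, 9.38 and 9.28 at 2 dpi, 9.87 and 18.7 at 4 dpi, and 5.27 and 13.3 at 7 dpi. After CCI it was at 7.99 and 7.59 FPKM on day 2 and at 6.18 and 22.6 on day 7, and after SNI at 14.4 and 23.2 FPKM. Every injury group overlapped the controls, with differences from -0.52 ± 0.45 (CCI at 2 dpi, limma adjusted p = 0.675) to 0.61 ± 0.45 (SNI, limma adjusted p = 0.999). Under escalating morphine it was at 23.7, 21.9 and 12.2 FPKM, where the lowest library was below the highest saline one (0.95 ± 0.51, limma adjusted p = 0.325). Under fixed morphine it was at 25.7, 7.13, 6.04 and 20.2 FPKM (-0.17 ± 0.44, limma adjusted p = 0.807), with the same libraries high and low as for Abca1 and Apoe.

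Replicates of 1 group differed widely in these genes. In fixed morphine, replicates 1 and 4 were high in Apoe, Abca1 and Abcg1 and low in Lpl, and replicates 2 and 3 were the reverse. After CCI at 7 dpi, replicate 2 was above replicate 1 in Apoe, Abca1 and Abcg1 and below it in Lpl. The SD within groups was 0.65 for Abca1 and 0.67 for Abcg1 on the log2 scale, above that of 78.9% and 80.9% of tested genes.

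Over the 30 libraries Abca1 and Abcg1 moved together, with Pearson's r 0.82 and Spearman's rho 0.80 (permutation p = 1e-05 for each, the smallest that the permutations can give; adjusted over 28 pairs 0.00028). Without the 2 libraries farthest in Abca1, r was 0.77, and for deviations from the group means it was 0.82. Within the low Cst3 set it was 0.96 (n = 14; permutation p adjusted over 56 relations 0.00056), and within the high set 0.66 (n = 16; adjusted permutation p = 0.0263, rho 0.56 with 0.0978). Abcg1 had rank 5 in likeness to Abca1 among 11758 other genes, and Abca1 was the gene most like Abcg1.

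Over all 30 libraries neither Apoe nor Lpl was related to the transporters past adjustment. For Apoe r was 0.34 with Abca1 and 0.37 with Abcg1 (permutation p adjusted over 28 pairs 0.115 and 0.0954). For Lpl r was -0.07 and -0.21 (adjusted permutation p = 0.759 and 0.354). Within the sets these relations passed adjustment in the low Cst3 set and not in the high one. In the 14 low Cst3 libraries Apoe went with Abca1 (r 0.83, rho 0.88; permutation p = 0.00016 and 0.00011, both adjusted 0.00205; r 0.90 without the 2 farthest libraries). In the 16 high Cst3 libraries r was -0.44 (permutation p = 0.0862, adjusted 0.201; rho -0.35) and -0.06 without the 2 farthest, so it rested on those. For Apoe with Abcg1, r was 0.83 in the low set (adjusted permutation p = 0.00205) and -0.43 in the high set (adjusted permutation p = 0.208), the latter 0.19 without the 2 farthest. Lpl went against Abca1 in the low set (r -0.77, rho -0.74; permutation p = 0.00243 and 0.0034, adjusted 0.0136 and 0.0190; r -0.68 without the 2 farthest) and not in the high set (r 0.37, permutation p = 0.162, adjusted 0.285; r -0.02 without the 2 farthest). For deviations from the group means over all 30 libraries, r was 0.39 for Apoe with Abca1 and 0.36 with Abcg1. For Lpl it was -0.007 with Abca1 and -0.08 with Abcg1. The sets were drawn from these data, and the permutations shuffled libraries across groups, so differences between groups enter these p-values. The differences between the sets were not tested. The low set holds the fixed morphine, CCI and SNI libraries, so the set and the treatments cannot be told apart.

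**Figure D3:**
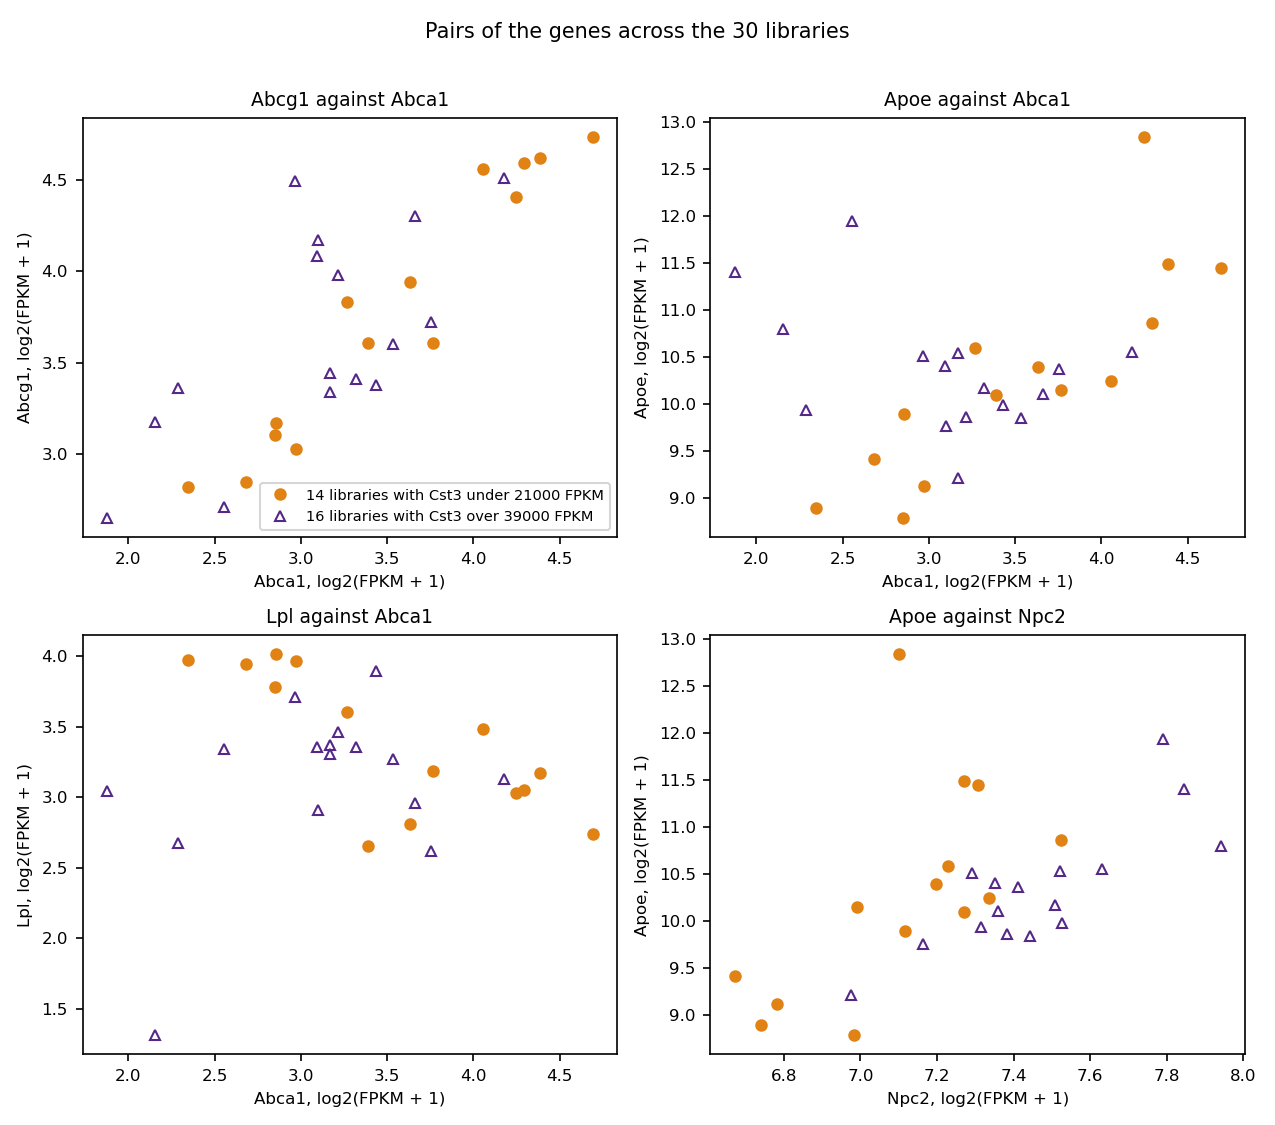
Pairs of genes over the 30 libraries, each axis in log2(FPKM + 1); filled circles are the 14 libraries with low Cst3 and open triangles the 16 with high Cst3. Abcg1 climbs with Abca1 in both sets, and along the circles Apoe climbs (r 0.83) and Lpl declines (r -0.77) with Abca1.

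The ratio of Abca1 to Lpl within each library was taken after these values were seen and is a description. It spanned 0.278 to 4.39 over the 30 libraries with a median of 0.937, and both extremes were fixed morphine libraries (replicate 3 and replicate 1). It was 2.48, 2.21 and 2.44 under escalating morphine and 0.859, 0.826 and 0.535 in escalating saline. Abca1 and Lpl each separated these groups, in opposite directions, so their ratio had to separate as well. SNT at 1 dpi replicate 1 had 2.32 and the naive libraries 1.79 and 1.55. The SNI libraries held 1.90 and 2.56 and the CCI libraries at 2 dpi 0.412 and 0.487.

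**Figure D4:**
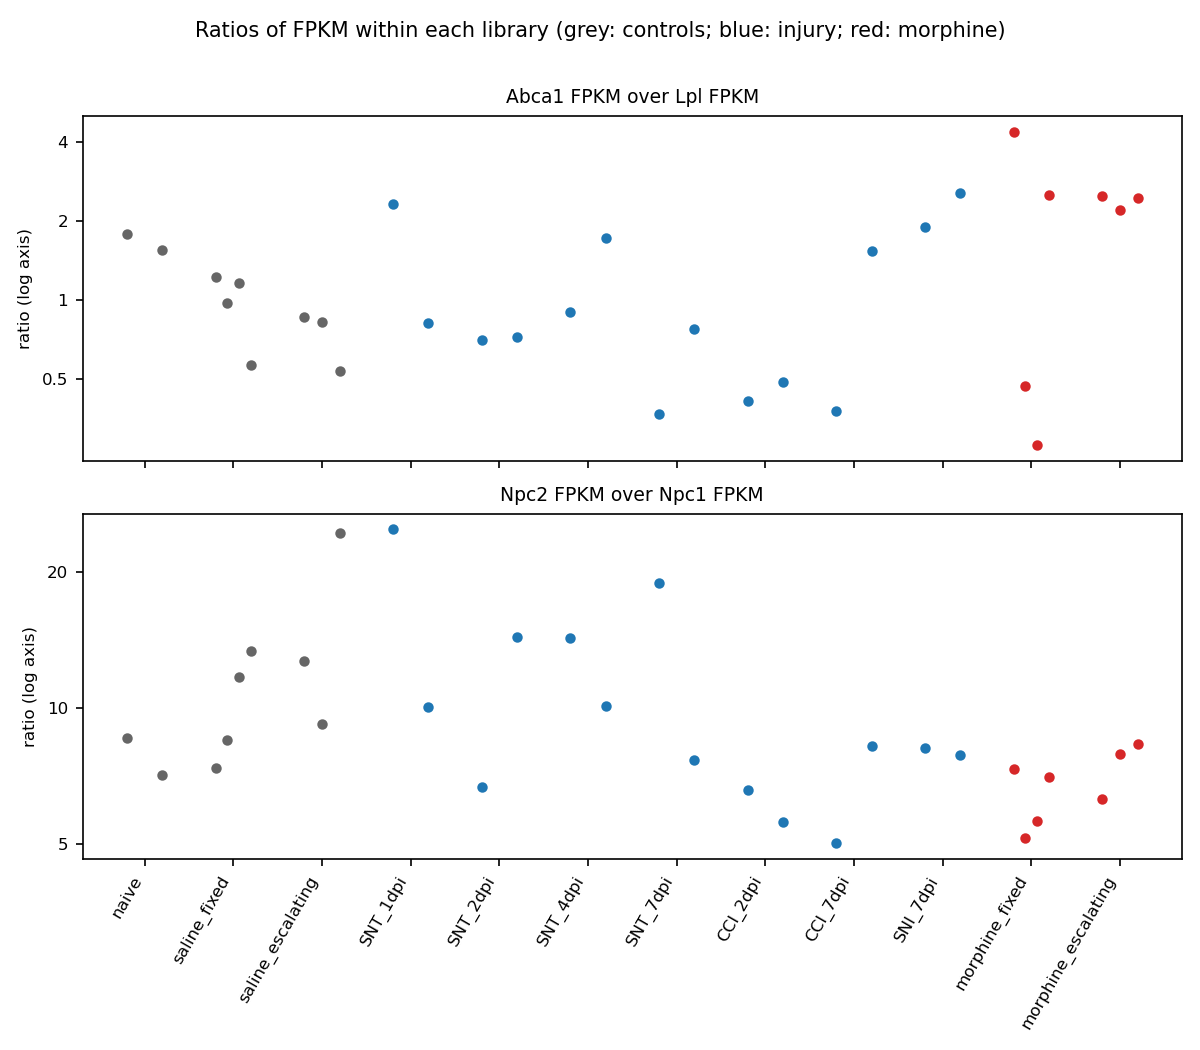
Ratios of FPKM within each library (vertical, log axis) for Abca1 over Lpl (top) and Npc2 over Npc1 (bottom) in the 12 groups; each point is 1 library. The 3 escalating morphine libraries sit between 2.21 and 2.48 in the top panel, above the 3 escalating saline libraries. SNT at 1 dpi replicate 1 (2.32) lies in the same range, and the fixed morphine libraries spread from 0.278 to 4.39.

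Nr1h2, the beta form of LXR, was at 16.1 and 23.3 FPKM in the naive libraries, at 27.3 to 33.3 FPKM in the 4 fixed saline libraries and at 17.0, 20.5 and 21.8 FPKM in escalating saline. The fixed saline libraries thus lay above the other 5 controls without overlap. How often other genes split the controls in this way was not counted. The 3 kinds of control did not differ past the threshold (limma F-test, adjusted p = 0.538). Escalating morphine held 28.4, 27.8 and 25.8 FPKM, above escalating saline (0.46 ± 0.18, limma adjusted p = 0.189). Fixed morphine held 32.2, 29.8, 23.7 and 27.2 FPKM and overlapped fixed saline (-0.10 ± 0.15, limma adjusted p = 0.673). The difference between the regimens in their response was -0.55 ± 0.23 (limma adjusted p = 0.381).

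After injury Nr1h2 spanned 7.36 to 32.8 FPKM and overlapped the controls in every group. The lowest value was SNT at 2 dpi replicate 2, 1 of the libraries with few genes, beside 30.6 FPKM in replicate 1. Without replicate 1, that lone library gave a called difference of -1.56 from the controls (limma adjusted p = 0.0288). With both, the difference was -0.60 ± 0.40 (limma adjusted p = 0.719).

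Ch25h, whose oxysterol product also guides immune cells, was near the floor of these libraries. It was listed at 0 in 3 of them: escalating saline replicates 7 and 9 and SNT at 1 dpi replicate 1. The highest value was 3.59 FPKM in SNT at 7 dpi replicate 1, beside 0.864 in replicate 2. The difference at that time was 0.76 ± 0.41 (limma adjusted p = 0.605). Under fixed morphine it was at 0.836 to 1.54 FPKM and under escalating morphine at 0.615 to 1.68 FPKM, both overlapping saline. Its genomic neighbour Lipa was higher in every library, at 13.8 to 44.7 FPKM.

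Npc1, the lysosomal membrane protein that takes cholesterol from Npc2, was at 17.9 and 17.8 FPKM in the naive libraries. It was at 23.5, 21.3, 12.1 and 11.6 FPKM in fixed saline and at 9.81, 18.0 and 9.00 FPKM in escalating saline. Escalating morphine held 24.4, 25.0 and 20.3 FPKM, all above escalating saline. The difference of 0.92 ± 0.29 had the lowest p of any of the genes in the comparisons of 2 groups and did not pass (limma adjusted p = 0.133). Without escalating saline replicate 8, the highest of the escalating saline libraries, it was 1.21 and was called (limma adjusted p = 0.0372). In that setting 465 of all 11759 genes were called. Fixed morphine held 21.5, 21.1, 18.8 and 19.3 FPKM, inside the range of fixed saline (0.29 ± 0.25, limma adjusted p = 0.447).

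After injury Npc1 was at 9.82 and 16.1 FPKM (SNT at 1 dpi), 27.4 and 11.0 (2 dpi), 12.7 and 16.1 (4 dpi) and 12.1 and 19.4 (7 dpi). After CCI it was at 20.9 and 22.4 FPKM on day 2 and at 20.1 and 19.5 on day 7, and after SNI at 17.8 and 23.2 FPKM. The CCI pairs lay close together and the SNT pairs apart, and all overlapped the controls. At 7 dpi both CCI libraries were above both SNT libraries, by 0.35 ± 0.47 (limma adjusted p = 0.828).

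Npc2, the soluble lysosomal protein that binds free cholesterol, was the steadiest of the 9 tested genes. Its SD within groups was 0.28 on the log2 scale, and 4.64% of tested genes had a lower one. It spanned 101 to 245 FPKM over all libraries and 125 to 220.2 FPKM over the controls. Fixed morphine held 157, 109, 106 and 136 FPKM, beside 173, 181, 142 and 156 FPKM in fixed saline. These groups overlapped through fixed morphine replicate 1, and the difference was -0.37 ± 0.20 (limma adjusted p = 0.197). With array weights, which down-weight variable libraries, it was -0.49 and was called (limma adjusted p = 0.0282). This setting called 4348 of all 11759 genes. Escalating morphine, at 153 to 197 FPKM, lay within escalating saline, at 125 to 220.2 FPKM (0.06 ± 0.23, limma adjusted p = 0.928).

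Npc2 was higher than Npc1 in every library, by 5.02 to 24.9 times. The ratio was 5.02 to 8.58 in the low Cst3 libraries and 6.69 to 24.9 in the high ones. It was 24.5 in escalating saline replicate 9 and 24.9 in SNT at 1 dpi replicate 1. The correlation of Npc2 with Apoe was r 0.59 in the low set, which did not pass adjustment (permutation p = 0.0256, adjusted 0.0796), and r 0.81 in the high set (permutation p = 0.00022, adjusted 0.00205; rho 0.73 with permutation p = 0.00193, adjusted 0.0135; r 0.77 without the 2 farthest libraries). Over all 30 libraries r was 0.54 (permutation p = 0.00216, adjusted over 28 pairs 0.0101), and Npc2 ranked 25 among the genes most like Apoe.

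Lipa, the acid lipase that splits cholesteryl esters in the lysosome, was at 25.9 to 41.6 FPKM in the 9 controls. Fixed morphine held 29.0 to 34.2 FPKM and escalating morphine 31.7 to 40.8 FPKM, both overlapping saline, with differences of 0.04 ± 0.17 and 0.17 ± 0.20 (limma adjusted p = 0.898 and 0.677). After injury it spanned 13.8 to 44.7 FPKM. The 3 lowest values were again the 3 SNT libraries with few genes: 13.8 FPKM (2 dpi replicate 2), 14.4 (7 dpi replicate 1) and 19.1 (1 dpi replicate 1). The CCI libraries held 39.9 and 37.7 FPKM on day 2, then 34.8 and 33.5 on day 7. No difference from the controls reached an unadjusted limma p of 0.05. Lipa went with Npc1 over the 30 libraries (r 0.66, rho 0.67; permutation p = 0.0001 and 6e-05, adjusted over 28 pairs 0.0014 and 0.00084; r 0.77 without the 2 farthest libraries). Within the sets r was 0.74 (adjusted permutation p = 0.0115) and 0.58 (adjusted 0.0597).

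By the correlation of log2(FPKM + 1) over the 30 libraries, given as a description, the genes most like Apoe were Abtb1 (r 0.68), Ecm1 (0.68) and Crispld2 (0.66). Those most like Abca1 were Gm8615 (0.91), Klhl24 (0.84) and Gm5431 (0.82), and those most like Abcg1, after Abca1, were Tmem86a and Prdm1 (both 0.71). For Lpl they were Atp1b3 (0.85), Nup85 and Nasp (both 0.84), and for Nr1h2 Trafd1 (0.90), Sh3bp1 and Fance (both 0.88). For Npc1 they were Copg2 (0.91), Snrnp200 and Gna13 (both 0.89), for Npc2 Ctss (0.85), Itm2b (0.83) and Use1 (0.81), and for Lipa they included Derl1 (0.91) and Slc29a3 (0.90). The points share library depth, and Apoe had no gene as near to it as the other 7 genes had.

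The other genes of lipid handling were read from 5 lists: apolipoproteins and lipid transfer, transporters and receptors of lipoproteins, partners and other targets of LXR, lysosomal lipid handling, and esterification, oxysterols and lipid droplets. Of these genes 77 were tested. None of the 77 was called in any of the 7 injury comparisons or under escalating morphine. The lowest p-values after injury were those of Nceh1, a cholesteryl ester hydrolase (-1.56 ± 0.42), and Abhd5, an activator of droplet lipolysis (-1.79 ± 0.49), for SNT at 1 dpi (limma adjusted p = 0.138 for both). Under escalating morphine the lowest was that of Abca3, a phospholipid transporter, with 13.3 ± 6.73 FPKM (SD, n = 3) beside 4.38 ± 1.37 (SD, n = 3) (1.35 ± 0.37, limma adjusted p = 0.103).

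Fixed morphine differed from fixed saline in 15 of the 77 genes, 12 of them higher. Of 14 tested transporters and receptors, 5 rose and 1 fell, and of 19 tested partners and targets of LXR, 5 rose and none fell. Lysosomal lipid handling had 1 higher and 1 lower of 19, the esterification list 1 and 1 of 21, and the apolipoproteins 0 of 4. Over all genes 18% were called, with 1595 higher and 524 lower (75.3% of calls higher). The 15 of 77 genes, 12 of them higher, were thus close to the shares of all genes. The genes named below are therefore part of a wide difference between these groups. Whether any list held more calls than all genes did was not tested. The median difference was 0.74 for the transporters and receptors, 0.59 for the LXR list, 0.11 for the lysosomal and 0.17 for the esterification list, 0.38 for the apolipoproteins and 0.04 for the 9 tested genes above, beside 0.22 for all genes tested.

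Osbp, an oxysterol-binding protein that moves sterol between membranes, had the largest difference, at 19.8 ± 2.34 FPKM (SD, n = 4) under fixed morphine and 2.08 ± 0.97 (SD, n = 4) in fixed saline. It rose by 2.82 ± 0.49 (limma adjusted p = 0.00606). Ncoa1, a coactivator of nuclear receptors, rose by 1.93 ± 0.36 (7.42 beside 1.24 FPKM), and Fasn, the fatty acid synthase, by 1.53 ± 0.31 (5.12 beside 1.04 FPKM), with limma adjusted p = 0.00652 and 0.00866. Rxra and Rxrb, the dimer partners of LXR, rose by 1.41 ± 0.34 and 1.04 ± 0.32, and Nrip1, a nuclear receptor cofactor, by 1.13 ± 0.29.

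Lrp1, an endocytic receptor for Apoe, rose by 1.19 ± 0.28 (53.2 ± 11.5 beside 23.9 ± 9.84 FPKM; SD, n = 4 each; limma adjusted p = 0.0145). Abca3 rose by 1.31 ± 0.32, Scarb1, a receptor for high-density lipoprotein, by 1.18 ± 0.37, and Abca2 by 1.01 ± 0.24. Trem2, a lipid-sensing receptor of microglia, fell, from 1179 ± 302 FPKM to 483 ± 135 FPKM (SD, n = 4 each; -1.29 ± 0.26, limma adjusted p = 0.00812). Galc, which breaks down galactosylceramide of myelin, rose by 1.29 ± 0.37, while Hexa, a ganglioside-degrading enzyme, and Cyp27a1, which hydroxylates cholesterol, were lower at -0.64 ± 0.20 and -0.90 ± 0.25.

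**Figure D5:**
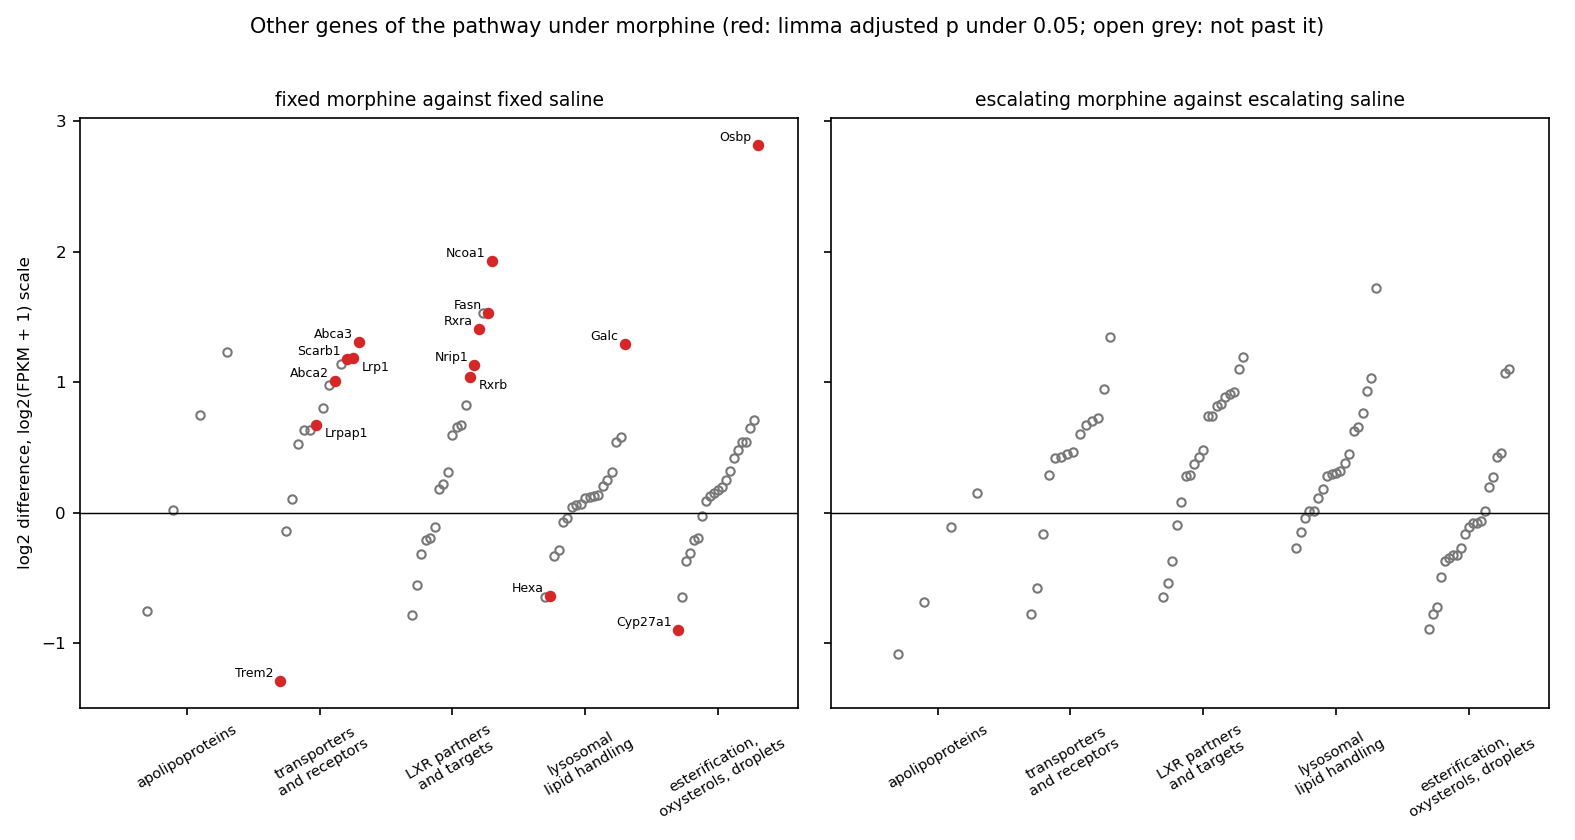
Log2 difference (vertical) of each tested gene of the 5 lists (horizontal) for fixed morphine against fixed saline (left) and escalating morphine against escalating saline (right); red points passed limma's adjusted p of 0.05 and are named, open grey points did not. The 15 red points are all on the left, from -1.29 for Trem2 to 2.82 for Osbp.

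Several library properties moved with this comparison, and their part in it was not tested. All 4 fixed morphine libraries and none of the 4 fixed saline libraries were in the low Cst3 set, so treatment and set cannot be told apart. As a relative floor, FPKM was multiplied by the longest transcript length in kb, for genes with an annotated length. The product below which 5% of a library's products above 0 lay ran from 0.118 to 0.135 under fixed morphine. It ran from 0.350 to 0.539 for the saline of that regimen. Genes called higher had a median longest transcript of 4680.5 bases and genes called lower 2005 bases, beside 3276 for all tested. The neutrophil list had a median difference of -2.02, with 8 of 8 genes lower and 2 called, and its summed level was 1641 to 16980 FPKM beside 6838 to 27692 FPKM. The astrocyte list had a median of 0.71 with 7 of 8 genes higher and 0 called, at 59.6 to 168 FPKM beside 28.2 to 209 FPKM. The neuron list had 0.51 with 7 of 7 higher and 0 called, at 12.3 to 41.9 FPKM beside 2.41 to 23.3 FPKM. The monocyte list had -0.79 with 0 of 6 called, and 1 border macrophage gene of 7 and 1 endothelial or mural gene of 3 were called lower. The 2 naive libraries share the low Cst3 set with fixed morphine. Against them, with all 30 libraries in the fit, 0 of the 15 genes were called, as were 0 of all 11759 genes by limma. At an unadjusted limma p under 0.05 there were 180, none of the 15 among them. The sign was kept by 15 of 15, with Osbp at 0.40 ± 0.60, Ncoa1 at 0.36 ± 0.44 and Trem2 at -0.11 ± 0.35. Each difference was smaller in size than that from fixed saline. Standard errors were larger than against fixed saline in the same fit (Osbp 0.60 beside 0.49), which lowers the power to call genes. Quantile scaling and median-ratio scaling moved the median of all genes from 0.22 to -0.02 and 0.04 and changed the split of calls from 75.3% higher to 54.4% and 57%. With rescaling to a common sum (TPM), the median was 0.53 and 91.3% of calls were higher. Over the 3 scalings 11 to 13 of the 15 genes were called. Leaving out 1 library at a time left 6 to 13 of them called: 6 without fixed morphine replicate 2, 7 without fixed saline replicate 6, and 9 without fixed saline replicate 4 or 5 or fixed morphine replicate 3. With all 30 libraries in the fit 8 were called against fixed saline.

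Among all 12 groups, 9 of the 77 genes passed (limma F-test; 7.72% of all genes did). They were Abca3, Lrp1, Lrpap1, Trem2, Rxra, Fasn, Ncor1, Ncoa1 and Osbp, with adjusted p from 0.00293 for Ncoa1 to 0.0347 for Rxra. Of these, Ncor1, a corepressor that holds unliganded LXR silent, was the 1 not called under fixed morphine. Its groups ran from 7.65 ± 0.32 FPKM (SD, n = 2) in SNT at 4 dpi to 23.8 ± 1.99 FPKM (SD, n = 4) in fixed morphine. None of the 9 tested efflux genes passed this test, with adjusted p from 0.371 for Abca1 to 0.870 for Lipa.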

How the data were processed

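Libraries were made with Smart-Seq2 and Nextera XT, per the labels' protocols. The authors deposited 1 table of FPKM values, and the submitters' processing notes list the build mm10, featureCounts 1.4.6, DESeq2, Cufflinks 2.2.1 and HISAT2 2.0.5.1. Which tool made the FPKM values is not given in the sources used here. The table holds no counts, so depth is unknown and no count test was run.

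The 826 rows of 281 repeated symbols were left out, and 11759 genes that reached 1 FPKM in 2 or more libraries were tested. Values were tested as log2(FPKM + 1), a scale that understates the change of low genes, with limma 3.58.1 (R 4.3.3; intensity trend, two-sided, Benjamini-Hochberg over all genes kept, threshold 0.05). The 7 injury comparisons share the 9 controls and came from a fit of 23 libraries, the morphine comparisons from a fit of 14, and the tests among controls and among 12 groups from a fit of all 30. The procedure was tested on simulated data. Correlations used 100000 permutations (Python 3.11.15, numpy 2.4.6, pandas 2.3.3, scipy 1.17.1), two-sided, with figures from matplotlib 3.10.9. The permutations shuffled libraries without regard to their groups.

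The genes and lists were chosen with earlier results of these data known. All 10 genes are described. Of each pathway list, every gene past the threshold is named where at most 5 passed, otherwise the 5 with the largest difference, and where none passed at most 2 with the lowest p. For each of the 10 whose mean was 5 FPKM or more, the 3 most similar genes are named, except 1 that is not reported here. Alternatives were pseudocounts of 0.1 and 5, a filter of 5 FPKM, no filter, quantile, median-ratio and TPM scaling, array weights, other controls, other libraries in the fit, a replicate block, and leaving out each library or the 3 with the fewest genes.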

Additional observations from a re-analysis of the deposited data

Results flagged for a closer look

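Apoe in escalating saline replicate 9 stood apart from the other 8 controls, at 3931.8 FPKM. Its gap to the next control was 0.524 of the whole range of the 9 libraries, above Dixon's critical value of 0.493. Of 30 sets of libraries and genes screened in this way 1 stood apart, and chance alone flags about 1 in 20.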

How the results depend on the processing

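Of 2479 differences of the 9 tested genes under the alternatives, 2243 kept direction and side of the threshold, 231 changed sign without being called and 5 became called. Of 672 F-tests, which have no direction, 670 kept their side and 2 became called. None of the 9 genes was called under the main settings. With array weights 1 gene was called for fixed morphine (Npc2) and 2 among all 12 groups (Lpl and Npc2, limma adjusted p = 0.00454 and 0.00127). Array weights also called 4348 and 5867 of all 11759 genes in these comparisons. Leaving out 1 library gave 0 to 1 called genes in each comparison: 1 without SNT at 1 dpi replicate 2 (Lpl, SNT at 1 dpi), without SNT at 2 dpi replicate 1 (Nr1h2, SNT at 2 dpi), without SNT at 7 dpi replicate 2 (Abca1, SNI against SNT) and without escalating saline replicate 8 (Npc1, escalating morphine). A lone library left in a group of 2 is assumed to vary like the other groups. In each of these leave-out settings the number of all genes called was also the highest of its comparison, given below. In the naive and injury groups, differences of replicate 1 from replicate 2 correlated at -0.429 to 0.224 over 28 pairs of groups. No clear pairing by replicate number was seen there, though such a check cannot show that there is none. Saline and morphine groups were not part of it. With the replicate block 0 of the 9 genes were called wherever it could be fitted, and 0 of all genes and 0 of the 15 pathway genes for fixed morphine. Fixed saline is numbered 3 to 6 and fixed morphine 1 to 4, so that contrast rested on numbers 3 and 4. With so few libraries the 0 cannot decide whether the calls hold. It could not be fitted for the escalating regimen, the difference of responses, the controls or the 12 groups.

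Counts over all genes moved far more. They spanned 0 to 1221 for SNT at 1 dpi, 0 to 1143 at 2 dpi, 0 to 11 at 4 dpi and 0 to 1006 at 7 dpi, with the highest at 1, 2 and 7 dpi on leaving out 1 SNT library. They spanned 0 to 262 for CCI at 2 dpi and 0 to 1068 at 7 dpi, and 0 to 44 for SNI, the last with saline controls alone, chosen after seeing the data. They spanned 0 to 4348 for fixed morphine (2119 under the main settings), 0 to 465 for escalating morphine and 0 to 683 for the difference. Between injuries they spanned 0 to 1779 (CCI and SNT at 2 dpi), 0 to 1777 (at 7 dpi), 0 to 1006 (SNI and SNT) and 0 to 6 (CCI and SNI). They spanned 0 to 546 among SNT days, 0 to 1033 among controls and 489 to 5867 among 12 groups. The cause was not tested.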
